A study of Agaricus bisporus with 12 samples.

Results

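Hydrophobin genes 136569, 193057, 193052 and 133693 and the uncharacterised gene AGABI2DRAFT_136557 were followed through the cultivation of the white button mushroom, Agaricus bisporus. Genes are called by the numbers of the deposited tables, which for AGABI2DRAFT_136557 is the digits that end the name. The genes followed are 5 of the 9502 genes with a read in any library. They were chosen by number with earlier results of these data in view. AGABI2DRAFT_136557 was taken because it was the most abundant transcript at most stages, and the hydrophobins for their annotation and level, so the levels and ranks below describe the choice and are given without a test. All libraries came from compost colonised by mycelium of strain A15, a commercial heterokaryon from Sylvan, grown on Phase II compost of wheat straw, manure, gypsum and water. Spawned compost was kept at 25 °C for 16 days and then covered with a casing of peat and lime. The 6 groups are the spawning stage (sampled at 16 days), the pinning stage, when mushroom initials form, and the first and second flush, which are waves of mushrooms, each flush with a later time point called after first flush and after second flush, with 2 libraries each. No group carries a mutation or a treatment, and compost rather than picked mushrooms was sampled throughout.

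Hydrophobins are small secreted proteins of filamentous fungi that assemble at boundaries between water and air into films with one water-attracting and one water-repelling face. They let hyphae grow out of a wet substrate into air and coat the surfaces of hyphae, spores and mushrooms. In Agaricus bisporus the hydrophobin named Hydrophobin-1 or Hydrophobin-A, the database match of gene 133693, is known from the mushroom itself, where it coats the cap surface and lines air spaces. The deposited tables name genes 136569, 193057 and 193052 only as hydrophobin, and AGABI2DRAFT_136557 as a hypothetical protein with no function, KEGG or GO term. The tables give no sequences, so the genes are described by number, length, level and neighbours. The gene lengths used by the authors were 543 bases for AGABI2DRAFT_136557, 569 for 136569, 517 for 193057, 616 for 193052 and 705 for 133693.

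Libraries held 7.27 to 9.34 M reads (M, mega) placed uniquely in genes. Pearson's r between the libraries of a stage, taken across the tested genes in log2 CPM (counts scaled to library total), was 0.974 to 0.992 and lowest for the pair from after first flush, with genes not being independent replicates. Nothing in the labels ties the libraries to beds or trays, so the p-values cover the spread between these samples alone, and that spread may be technical. In the sample codes the first flush has a letter of its own, and any difference in handling that goes with the letter cannot be told apart from the stage. RPKM, the unit of all levels below, divides the reads of a gene by its length and by the reads of the library. Since compost holds the whole mycelium, fewer cells of a kind and less RNA per cell cannot be told apart.

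The 5 genes together took a share of all gene reads that was highest at pinning and lowest after second flush. At spawning they held 3.14% of reads in replicate 1 and 3.21% in replicate 2. The pinning shares were 4.9% and 4.66%, those of first flush 2.78% and 3.29% and those of second flush 1.54% and 2.2%. Between the flushes 1.34% and 1.37% were reached, and the last libraries had 0.402% and 0.578%. The pinning libraries lay above all others and the after second flush libraries below all others, while spawning and first flush overlapped. Nearly all of these reads belonged to AGABI2DRAFT_136557, 136569 and 193057, since 193052 added at most 0.285% of a library and 133693 at most 0.0297%.

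**Figure D1:**
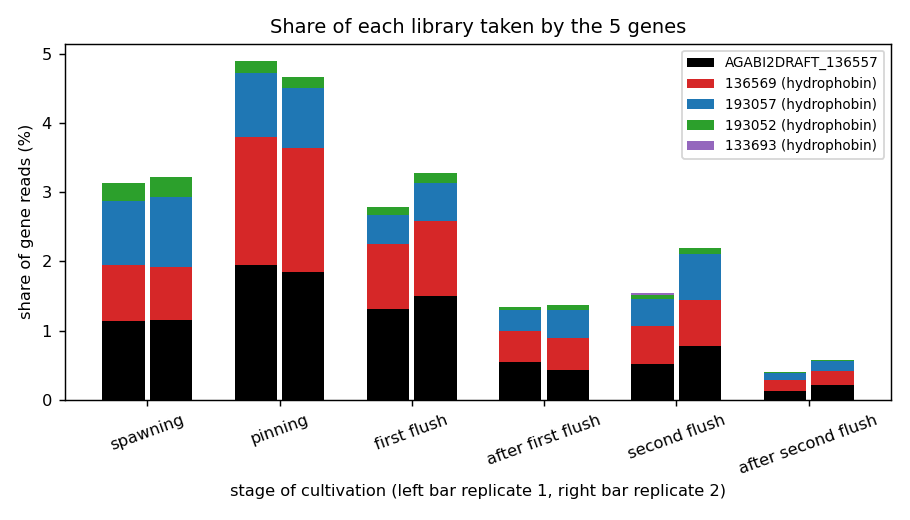
Share of each library's gene reads, in percent, taken by the 5 genes, with a bar for each library (left replicate 1, right replicate 2) and the genes stacked. The pinning bars reach 4.9% and 4.66%, and the bars from after second flush reach 0.402% and 0.578%.

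Stage differences of the hydrophobins were read from edgeR's quasi-likelihood test over all 12 libraries and 8814 tested genes, with a Benjamini-Hochberg adjusted p under 0.05 as the threshold. The choice of genes did not use a contrast between stages, but it was made with these contrasts known. Over the 6 stages all 4 hydrophobins differed, as did 85.6% of the tested genes. At pinning against spawning 1 of the 4 was higher (29.3% of all tested genes were) and 1 lower (25.2%). At first flush against pinning none was higher (25.1%) and 2 were lower (23.6%). After first flush against first flush none was higher (26.1%) and 2 were lower (26.0%). At second flush against after first flush 2 were higher (11.3%) and none lower (11.0%). After second flush against second flush none was higher (5.29%) and 3 were lower (2.89%), and at the end of cultivation against spawning none was higher (31.9%) and 3 were lower (27.6%). The change after second flush differed from the change after first flush for 2 of the 4. It did for 39.4% of all tested genes, in either direction. With limma on unscaled RPKM the share of all calls that were higher was 68.2% in place of 51.6% at first flush, 31% in place of 50.8% at second flush and 71% in place of 53.6% at the end against spawning.

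By the mean RPKM of a stage, AGABI2DRAFT_136557 ranked first at every stage but the last, where it was in place 4. In single libraries it was in place 2 in after first flush replicate 2 and second flush replicate 1. After second flush it was in place 12 in replicate 1 and in place 3 in replicate 2. Its level was 21000 RPKM in spawning replicate 1 and 21166 in replicate 2, and 35787 and 34112 at pinning. In the first flush libraries it stood at 24036 and 27715 RPKM, followed by 9933 and 7903 between the flushes. The second flush libraries had 9418 and 14187 RPKM, and the last 2 libraries had 2183 and 3979. The order of the stages by mean was therefore pinning, first flush, spawning, second flush, after first flush and after second flush. Libraries of stages next to each other in that order did not overlap, except for second flush and after first flush, whose ranges did. As a description, its mean was 1.66 times as high at pinning as at spawning, and at spawning 6.84 times as high as after second flush. After second flush the libraries were 1.82-fold apart, with a mean of 3081 ± 1270 RPKM (SD, n = 2), whereas the means of stages next to each other in the order were 1.23-fold to 2.89-fold apart. In that stage elongation factor 1-alpha (gene 133083), which brings tRNAs to the ribosome, had 6502 ± 381 RPKM (SD, n = 2) and ubiquitin (gene 133168), which tags proteins for breakdown, had 5050 ± 713 (SD, n = 2).

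**Figure D2:**
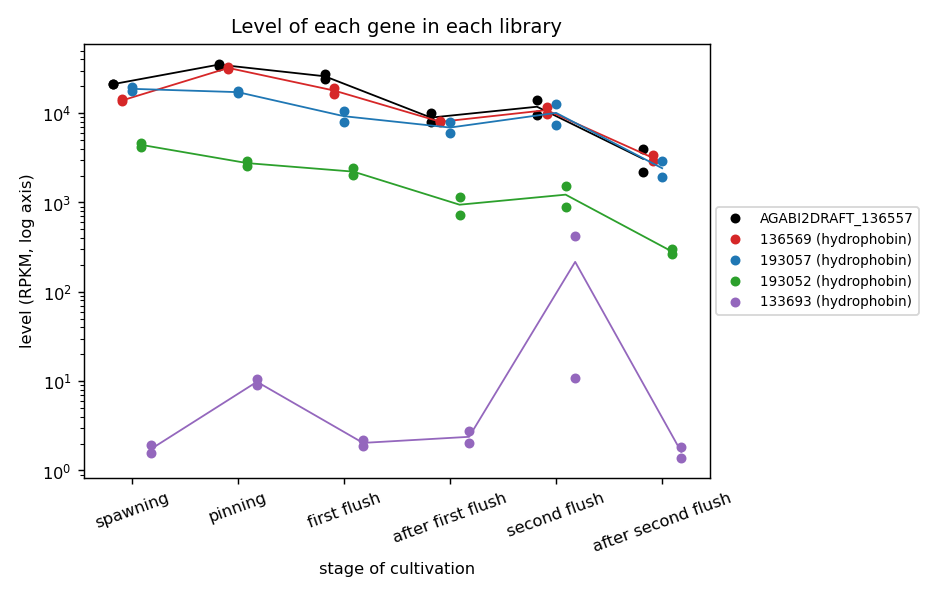
Level of the 5 genes in every library (points; RPKM on a log axis) over the 6 stages, with lines through the mean of the 2 libraries of a stage. Genes AGABI2DRAFT_136557, 136569 and 193057 lie between 1950 and 35787 RPKM, 193052 lies between 265 and 4624, and 133693 lies between 1.38 and 10.8 RPKM except in second flush replicate 1, at 422.

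Hydrophobin 136569 rose at pinning, 2.31-fold in mean RPKM, and fell in steps after it, with a smaller rise at second flush. Its level was 14278 and 13513 RPKM in the spawning libraries and 32695 and 31496 at pinning (log2 change 1.08, SE 0.16, edgeR adjusted p = 0.00016). It fell to 16565 and 19195 RPKM at first flush (−1.07, SE 0.16, edgeR adjusted p = 0.00026). After first flush it fell again, to 7868 and 8131 RPKM (−1.19, SE 0.16, edgeR adjusted p = 0.0001). No libraries of these stages overlapped, and the order by mean was pinning, first flush, spawning, second flush, after first flush and after second flush, as for AGABI2DRAFT_136557. At second flush it rose to 9836 and 11794 RPKM (0.57, SE 0.16, edgeR adjusted p = 0.025). That call was lost without after first flush replicate 1 (adjusted p = 0.071) and without second flush replicate 2 (0.19). It was lost too with limma on log2 RPKM (0.12) and when only these stages were fitted (0.19). After second flush it fell to 2922 and 3417 RPKM (−1.82, SE 0.16, edgeR adjusted p = 0.00011), and by then it stood lower than at spawning (−2.43, SE 0.16, edgeR adjusted p = 7.3e-07).

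Hydrophobin 193057 was the most abundant of the 4 at spawning, and its level at pinning was not called as different. Its level was 17929 and 19525 RPKM at spawning and 17744 and 16637 at pinning, a difference that did not pass (log2 change −0.26, SE 0.30, edgeR adjusted p = 0.49). With only these 4 libraries fitted the same difference passed (−0.28, adjusted p = 0.015). At first flush it fell to 7959 and 10535 RPKM (−1.12, SE 0.30, edgeR adjusted p = 0.013), a call lost without pinning replicate 1 (adjusted p = 0.058) or first flush replicate 1 (0.091). After first flush it stood at 5925 and 7875 RPKM, below both first flush libraries, but the difference did not pass (−0.45, SE 0.30, edgeR adjusted p = 0.23). At second flush its libraries were far apart, at 7361 and 12785 RPKM, and overlapped those from first flush and from after first flush. The difference from after first flush did not pass (0.68, SE 0.30, edgeR adjusted p = 0.13), and its size rests on which second flush library is kept. Without replicate 1 of that stage it was 1.06 (adjusted p = 0.029) and without replicate 2 it was 0.15 (adjusted p = 0.77). After second flush it fell to 1950 and 2888 RPKM (−2.11, SE 0.31, edgeR adjusted p = 0.0039), and it ended well under its spawning level (−3.25, SE 0.33, edgeR adjusted p = 2.3e-05).

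Hydrophobin 193052 was also highest at spawning and had the largest fitted drop from spawning to the end among the 4. Its level was 4208 and 4624 RPKM at spawning and 2923 and 2592 at pinning (log2 change −0.81, SE 0.28, edgeR adjusted p = 0.033). That call was lost without any 1 of the 4 libraries (adjusted p from 0.067 to 0.15). At first flush it stood at 2020 and 2409 RPKM, lower than at pinning in both libraries, but the difference did not pass (−0.54, SE 0.28, edgeR adjusted p = 0.14). Without second flush replicate 2 in the fit it did pass (−0.55, adjusted p = 0.048), as it did when only these stages were fitted (0.0048). It fell after first flush to 730 and 1159 RPKM (−1.26, SE 0.29, edgeR adjusted p = 0.0045). At second flush it stood at 900 and 1547 RPKM, a range that overlapped the one from after first flush (0.51, SE 0.28, edgeR adjusted p = 0.22), and single libraries set its size. Without second flush replicate 1 it was 0.88 (adjusted p = 0.039), without second flush replicate 2 it was −0.01 (0.98), and without after first flush replicate 1 it was 0.21 (0.67) and without replicate 2 of that stage 0.89 (0.073). After second flush it fell to 265 and 302 RPKM (−2.16, SE 0.30, edgeR adjusted p = 0.0026). Against spawning this was a log2 change of −4.26 (SE 0.32, edgeR adjusted p = 3.5e-06), and its place among all genes went from 9 to 518.

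The proportions between the abundant genes differed between some stages and overlapped between others. They are taken within a library and so do not depend on scaling between libraries. The ratio of 136569 to 193057 in RPKM was 0.796 and 0.692 at spawning and 1.84 and 1.89 at pinning. In first flush libraries it was 2.08 and 1.82, between the flushes 1.33 and 1.03, in second flush libraries 1.34 and 0.922, and in the last libraries 1.5 and 1.18. Hydrophobin 136569 was thus the lesser of the pair in both spawning libraries and in second flush replicate 2, and the greater in the other 9. The ratio of 193057 to 193052 was 4.26 and 4.22 at spawning and 3.94 and 4.37 at first flush, with pinning higher at 6.07 and 6.42. In the 6 later libraries it lay between 6.79 and 9.57, above all 6 earlier ones. The ratio of 136569 to AGABI2DRAFT_136557 stayed between 0.638 and 1.34 in all 12 libraries, and it was above 1 in after first flush replicate 2, second flush replicate 1 and after second flush replicate 1.

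**Figure D3:**
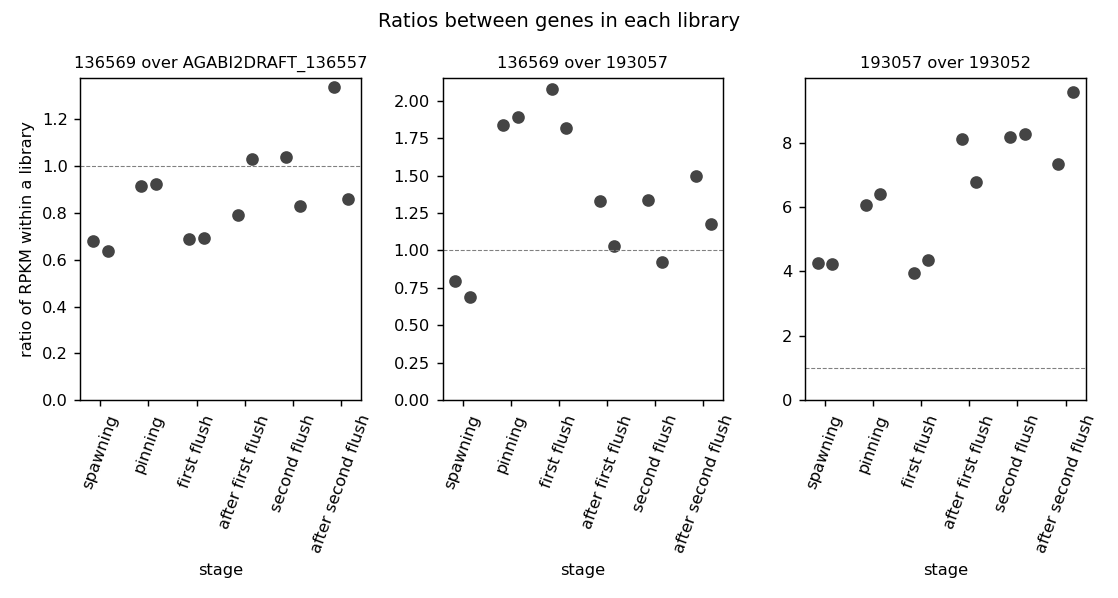
Ratio of RPKM between pairs of genes within each library (points) over the 6 stages, on linear axes that start at 0, with a dashed line at 1. The ratio of 136569 to 193057 is 0.796 and 0.692 at spawning and 1.84 and 1.89 at pinning.

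Hydrophobin 133693, the one matched to the mushroom hydrophobin, was not abundant in compost, so that the word does not describe it. It had 8 and 10 reads at spawning (1.56 and 1.91 RPKM) and 57 and 64 at pinning (8.96 and 10.7 RPKM). First flush libraries had 12 and 14 reads (1.89 and 2.18 RPKM), those from after first flush 12 and 17 (2.02 and 2.74 RPKM), and those from after second flush 12 and 9 (1.85 and 1.38 RPKM). The exception was second flush, with 2708 reads (422 RPKM) in replicate 1 and 71 reads (10.8 RPKM) in replicate 2. Replicate 1 was thus 39.1 times as high as replicate 2 in CPM, and replicate 2 was close to the pinning libraries.

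The rise of 133693 at second flush passed (log2 change 6.58, SE 1.63, edgeR adjusted p = 0.03), but its size rests on second flush replicate 1. Without that library the change was 2.33 and without replicate 2 it was 7.51. The call itself was lost without either library from after first flush (adjusted p = 0.14 and 0.13), without after second flush replicate 1 (0.05) and when only these stages were fitted (0.21). The fall after second flush did not pass (−7.05, SE 1.70, edgeR adjusted p = 0.052). It passed with DESeq2 (adjusted p = 6.1e-07), with limma on log2(RPKM + 1) (0.034) and without second flush replicate 1 (−2.81, adjusted p = 0.0013). Pinning against spawning did not pass either (2.36, SE 2.02, edgeR adjusted p = 0.36), although no libraries overlapped. With second flush replicate 1 left out that difference was 2.36 (SE 0.31), and with replicate 2 left out it was 2.33 (SE 0.26). The fall from pinning to first flush did not pass with all libraries (−2.48, SE 1.85, edgeR adjusted p = 0.31). It was −2.48 (SE 0.29) and −2.49 (SE 0.24) in the same fits. Those fits leave a single library at second flush, so the spread within that stage no longer adds to the SE. Both differences passed when only the compared stages were fitted (edgeR adjusted p = 1.8e-05 and 4e-05).

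A compost sample could hold young mushroom tissue, so a list of genes was summed beside 133693. They were taken by name as fruiting body genes, namely 6 tyrosinases, 3 lectins of mushroom type, and a mannose-binding lectin annotated by name alone. All 10 had a read in every library, and none was at 0. Tyrosinases 120049 and 120050 and the mannose-binding lectin 222139 had their highest stage means at spawning (11.4, 14.7 and 83.5 RPKM), before mushroom initials form. The names therefore do not mark mushroom tissue alone. Their summed level was 947 RPKM in second flush replicate 1 and 1127 in replicate 2. The sum was led by the XCL-like lectin 194894, at 490 and 747 RPKM. Of the 10 genes 7 were higher in replicate 1, among them all 6 tyrosinases, and 3 lectins were lower. Tyrosinases 120049 (2 and 1.83 RPKM) and 120050 (3.87 and 3.78) were nearly level, and 191530 (2.05 and 0.4) was near the floor. No share over all genes is given beside this count. The list's share of reads was 0.108% in replicate 1 and 0.104% in replicate 2. Spawning libraries had a sum of 369 and 361 RPKM, pinning libraries 1531 and 2218, first flush libraries 841 and 596, those between the flushes 1315 and 363, and the last libraries 336 and 333. Tyrosinase 191532, an enzyme of browning, had 33.9 and 9.83 RPKM in the second flush libraries. It was higher still in after first flush replicate 1, at 56.1 RPKM against 11.2 in replicate 2. In those libraries 133693 had 2.02 and 2.74 RPKM. Whether mushroom tissue had a part in the level of 133693 was not tested beyond these values.

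**Figure D4:**
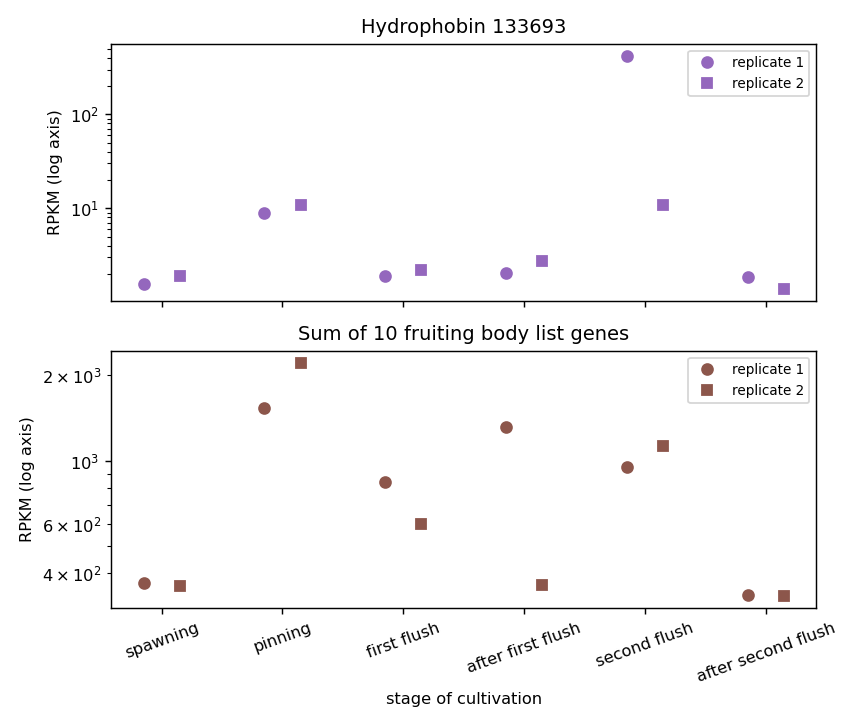
Level of hydrophobin 133693 (top) and summed level of the 10 fruiting body list genes (bottom) in each library, both in RPKM on log axes, circles for replicate 1 and squares for replicate 2. Hydrophobin 133693 stands at 422 RPKM in second flush replicate 1 and at 10.8 in replicate 2, and the summed list stands at 947 and 1127.

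Other genes stood apart between the second flush libraries too. Of 5685 genes with at least 20 CPM in either, 66 were over 2-fold higher in replicate 1 and 21 over 2-fold higher in replicate 2 on the log2(CPM + 1) scale. By the ratio of CPM, 2 genes were farther apart than 133693 (39.1), both uncharacterised. Gene 200902 had 138 and 2.58 RPKM (a CPM ratio of 53.4), and gene 72973 had 634 and 15.6 RPKM (40.6). Gene 72973 was also high in after first flush replicate 1, at 523 RPKM against 36.2 in replicate 2, where 133693 was near its floor. The abundant hydrophobins lay the other way in this pair, 193057 being lower in replicate 1 by 0.80 on the log2 scale, 193052 by 0.78 and 136569 by 0.26.

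The files annotate 3 further hydrophobins, all of them near the floor. Gene 189334 had between 9 and 52 reads per library, or 1.78 to 8.19 RPKM, and was above 133693 in 8 of 12 libraries. It rose at pinning (log2 change 1.30, SE 0.33, edgeR adjusted p = 0.0062) and passed in no other comparison. Gene 182973, matched to hydrophobin-2, had at most 4 reads in a library and none in 2 libraries. Gene 77253, matched to Hydrophobin-B, had at most 3 reads and none in 8 libraries. Both were removed by the filter on low counts, so 5 of 7 annotated hydrophobins were tested. The median log2 change of those 5 was 1.08 into pinning, −1.07 into first flush, −0.45 out of it, 0.57 into second flush and −2.11 out of it. Into pinning the genes moved both ways, and the median is the value of 136569. Genes 193057 (−0.26, not called) and 193052 (−0.81) were lower. Near the floor, 133693 (2.36, SE 2.02, not called) and 189334 (1.30) were higher. The pinning median therefore does not describe a shared rise. Over all tested genes the medians of the same steps were 0.05, 0.03, −0.01, −0.01 and −0.01.

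In RefSeq's gene table for the genome of strain H97 (assembly Agabi_varbisH97_2), 4 of the 5 genes could be found, and 3 of them sat in one stretch. Hydrophobin 193052 could not be found, so its place is not known. AGABI2DRAFT_136557 was followed after 6 other genes by 136569, which was followed after 10 more by 193057. The table leaves the scaffold unnamed, but start positions rose without a break through the whole stretch. Of the 16 other genes between AGABI2DRAFT_136557 and 193057, 14 had a read. The median of their highest RPKM in any library was 66.3, far under the levels of the 3 members. One was an exception: the uncharacterised gene 71560, between 136569 and 193057, had 11368 and 11962 RPKM at spawning and 14782 and 14189 at pinning. It held place 4 among all genes in both libraries at second flush, at pinning and after first flush, so that the 4 highest transcripts of those stages came from this stretch. The 4 genes together took 5.25% and 5.01% of reads at pinning.

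**Figure D5:**
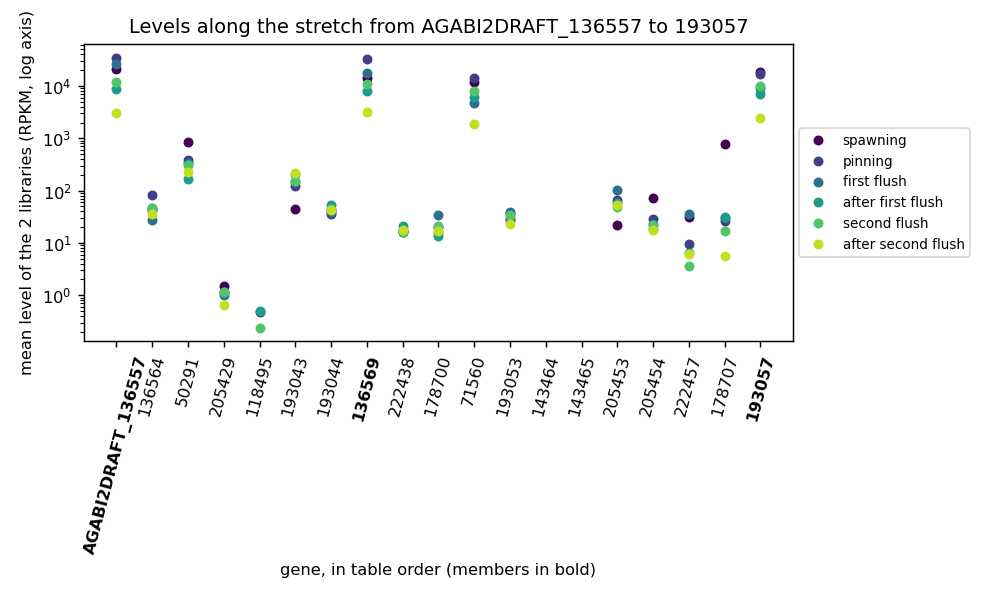
Mean level of the 2 libraries of each stage (RPKM, log axis) for the genes from AGABI2DRAFT_136557 to 193057, in the order of RefSeq's table for strain H97, with the members in bold and no point where a stage had no read. Genes AGABI2DRAFT_136557, 136569, 71560 and 193057 stand at 1905 RPKM or more at all stages, and the genes between them reach at most 894 RPKM in any library.

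For gene 71560 the difference between pinning and spawning did not pass (log2 change 0.18, SE 0.22, edgeR adjusted p = 0.52), and it fell at first flush to 4156 and 5399 RPKM (−1.82, SE 0.23, edgeR adjusted p = 0.0001). After second flush it fell to 1691 and 2118 RPKM (−2.11, SE 0.23, edgeR adjusted p = 0.00049). Among the 13 other tested genes of the stretch, 71560 included, 3 were higher and 5 lower at pinning, and 3 were higher and 3 lower at first flush. After first flush 3 were higher and 5 lower, at second flush 2 were higher and none lower, and after second flush none was higher and 2 were lower. At the end of cultivation against spawning 2 were higher and 10 lower (31.9% and 27.6% of all tested genes were). The shares of all tested genes for the other steps are given above beside the hydrophobins. Gene 178707, next to 193057, had its high values at spawning only, with a mean of 773 RPKM there and at most 31.2 at any later stage. Gene 50291, annotated as farnesyl-diphosphate farnesyltransferase, the enzyme that makes squalene for sterols, had 843 RPKM at spawning and 224 after second flush. Hydrophobin 133693 lay directly beside hydrophobin 182973 in the table, while its neighbour on the other side, annotated as chromosome transmission fidelity protein 18 (gene 63250), had 3.33 to 13.1 RPKM.

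As a description of likeness, Pearson's r of log2 CPM was taken over the 12 libraries, which share stages and depth, so that the values are not independent and carry no test. Among the members 136569 and AGABI2DRAFT_136557 were most alike (r = 0.978), followed by 193057 and 193052 (0.966), while 133693 had r between 0.041 and 0.231 with the others. Among 5709 other genes with a mean of at least 20 CPM, the gene most like AGABI2DRAFT_136557 was the uncharacterised gene 193558 (0.965), which was also first for 136569 (0.958). The gene most like 193057 was 71560 (0.967), which lies in the same stretch but not next to it. For 193052 it was a gene annotated as the SHO1 osmosensor (gene 194016, 0.953), a membrane sensor of osmotic stress in yeast, although its level moved much less, from 151 RPKM at spawning to 83.7 after second flush. For 133693 it was the uncharacterised gene 115967 (0.933), which had 1543 RPKM in second flush replicate 1 and 67.9 in replicate 2, so that this likeness rests largely on 1 library.

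Hydrophobins leave the hypha through the secretory route, where signal peptides are cut off and disulfide bonds are formed. A list of 28 genes for entry into that route and folding in it had members that rose and members that fell at most steps. At pinning 12 rose and 7 fell (median log2 change 0.08, against 0.05 for all tested genes), where 29.3% and 25.2% of all tested genes did. At first flush 4 rose and 5 fell (0.01 against 0.03), where 25.1% and 23.6% did. After first flush 3 rose and 9 fell (−0.04 against −0.01), where 26.1% and 26.0% did. At second flush 3 rose and 2 fell (0.17 against −0.01), where 11.3% and 11.0% did. After second flush none rose and 1 fell (−0.09 against −0.01), where 5.29% and 2.89% did. At the end against spawning 8 rose and 10 fell (0.13 against 0.06), where 31.9% and 27.6% did. Its most abundant member, a protein disulfide-isomerase annotated as A1 (gene 192046), which forms and shuffles disulfide bonds, had 1284 ± 79.1 RPKM (SD, n = 2) at spawning and 749 ± 78.8 (SD, n = 2) after second flush. Another isomerase annotated as A6 (gene 193116) rose at pinning (1.73, SE 0.19, edgeR adjusted p = 2.2e-05) and fell after first flush (−1.67, SE 0.17, edgeR adjusted p = 1.8e-05). A further isomerase annotated as A1 (gene 62224) moved the other way, falling at pinning (−4.39, SE 0.54, edgeR adjusted p = 0.00016) and rising after first flush (1.43, SE 0.50, edgeR adjusted p = 0.038). The whole list took between 0.377% and 0.536% of reads in a library, a narrower range than that of the 5 genes.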

How the data were processed

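RNA from mycelium-colonised compost was sequenced in 12 libraries, 2 per stage, with between 7266052 and 9336878 gene reads each. Per the file headers, the authors counted uniquely placed reads per gene, and the deposited count values sum to the header's total. Deposited RPKM is the count divided by gene length and by that total, and the deposited coverage values give the percent of a gene's length with reads. The sources used here do not give the aligner, build or strandedness. Counting unique reads leaves close paralogs, hydrophobins among them, uncertain, and A15 alleles that differ from a reference may lose reads. A gene not listed in a library was taken as 0.

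Counts of the 8814 genes passing edgeR's filterByExpr (minimum count 10, total 15) had TMM scaling factors of 0.834 to 1.11 and entered robust quasi-likelihood models of the 6 stages in all libraries at once, with 6 residual degrees of freedom, after testing on simulated data. A call is an adjusted p (Benjamini-Hochberg, every tested gene) under 0.05. The SE is the log2 change over the root of F. No test is given for AGABI2DRAFT_136557, chosen for its level. Members, comparisons and lists were chosen with earlier results of these data known. Lists matched gene descriptions (the nr name, otherwise KEGG text); a list of other hyphal surface proteins matched 0 genes. Named genes were the members, all annotated hydrophobins, the 3 genes most like each member, neighbours, the 5 most abundant genes per stage and each list's leading members, of which the text gives those a result turns on; genes 50291, 72973, 191532, 194894 and 200902 were picked after their values were seen. The test of the difference between the changes after the flushes was added after seeing the data. It is called below the difference between falls, though it takes changes of either direction. Alternatives were RLE scaling, no filter, DESeq2, limma on log2(RPKM + 1) and log2(RPKM + 0.1), the compared stages alone, a replicate block, library totals without the members, and each library left out. The versions used were edgeR 4.0.16, DESeq2 1.42.0 and limma 3.58.1 in R 4.3.3, with tables made in Python 3.11.15.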

Additional observations from a re-analysis of the deposited data

Results flagged for a closer look

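The change after second flush and the change after first flush are the same step in 2 waves of mushrooms and share no library. They differed for 2 of the 4 hydrophobins (39.4% of all tested genes differed, in either direction). Hydrophobin 193057 changed by −0.45 on the log2 scale after first flush and by −2.11 after second flush, a difference of −1.66 (SE 0.43, edgeR adjusted p = 0.012). The sign of that difference held without each library in turn (−2.03 to −1.15). Hydrophobin 136569 changed by −1.19 and −1.82, a difference of −0.63 (SE 0.22, edgeR adjusted p = 0.041). That call was lost in 9 of the 12 fits that left out 1 library, with limma on log2(RPKM + 1) (adjusted p = 0.09) and when only the 4 stages were fitted (0.096). For 193052 the difference was −0.91 (SE 0.40, edgeR adjusted p = 0.099).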

How the results depend on the processing

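With 2 libraries a stage, single libraries decided several calls. Leaving out each library in turn gave 1 to 3 called hydrophobins at pinning against spawning (2 with all libraries), 1 to 4 at first flush (2), 0 to 4 at second flush (2) and 1 to 4 for the difference between the after-flush falls (2). Over all genes the count at second flush was 1967, and 811 to 2035 with a library left out (1223 without second flush replicate 1, 811 without replicate 2). After second flush it was 721, and 175 to 1190 (1190 and 1189 without after first flush replicates 1 and 2, 330 and 307 without second flush replicates 1 and 2, and 175 without after second flush replicate 1). Fitting only the compared stages called 4 hydrophobins at pinning, where 5795 of 8451 tested genes were called, and 4 at first flush, where 4859 of 8593 were. The same fits called 0 hydrophobins at second flush (46 of 8602 genes) and 1 for the difference between falls (2808 of 8775). After second flush they called 426 of 8531 genes. Limma on RPKM called 1 hydrophobin at second flush with either pseudocount (1969 of 8814 genes with 1 and 1850 with 0.1). DESeq2 called 4 for the difference between falls (3291 of 8814 genes). Signs turned for 2 changes that had not passed: 133693 after first flush was −0.04 without after first flush replicate 2 (−0.04 to 0.4 over all libraries left out, 0.20 with all), and 193052 at second flush was −0.01 without second flush replicate 2 (−0.01 to 0.89, 0.51 with all); for these turns the cause was not tested. The 3 abundant hydrophobins stayed called as lower after second flush than at second flush and at spawning under every alternative. Unscaled RPKM moved the median of all genes by 0.11 at pinning, 0.21 at first flush, −0.11 at second flush and 0.26 at the end against spawning, and no hydrophobin turned sign with it. Replicate numbers did not pair the libraries: deviations of same-numbered libraries correlated at −0.239 to 0.204 over 15 pairs of stages, 1 of them over 0.1. A replicate block called 4725 genes at pinning, 4296 becoming 4225 at first flush, and added the calls of 193052 at first flush (adjusted p = 0.049) and in the difference between falls (0.048) and of 193057 at second flush (0.042). RLE scaling, no filter and totals without the 5 members changed no hydrophobin call. Depth limits 133693 and the other rare hydrophobins, with 8 to 17 reads of 133693 in most libraries.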

Other observations

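The deposited coverage, the percent of a gene's length with reads, differed between the abundant genes. Gene 193057 had between 93% and 93.6% of its 517 bases covered in all 12 libraries, whether 9251 or 82738 reads fell in it. Gene 136569 had 99.1% to 99.8% and AGABI2DRAFT_136557 had 97.6% to 99.8%. Hydrophobin 193052 ranged from 70.1% to 97.2% over 1499 to 21169 reads, with its lowest value at its fewest reads and 94.2% to 96.3% in the 3 libraries of 16240 to 21169 reads. The order was not strict, since first flush replicate 2 covered 97.2% with 13520 reads and pinning replicate 2 covered 76.1% with 13543. The cause was not tested.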
